A study of Mus musculus with 9 samples.

Results

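The comparison described here sets the Nat10 knockout line KO-c19 against WT in 4T1 cells, a mouse mammary tumour cell line, and asks which stress response genes moved with the knockout. It was drawn from 6 of the 9 libraries of the study, 3 of KO-c19 and 3 of WT, and covers the 17162 of 22469 genes with at least 10 normalized counts in at least 3 of those 6 libraries. In KO-c19 cells Nat10 was knocked out; its protein is an RNA acetyltransferase that acts on cytidines of ribosomal RNA, transfer RNA and further transcripts. WT cells are 4T1 cells with unedited Nat10. Neither group received a treatment, and both came from dishes of 6 cm seeded with 300000 cells and collected after 48 h. The other knockout line, KO-c43, had 3 libraries grown the same way. It is used to show where KO-c19 differs from it. Its libraries also entered the fit that estimated the spread of each gene. The 3 replicates of a group are biological replicates of 1 line each, and the p-values measure only how cultures within the lines vary. The effect of the knockout and any other difference between the KO-c19 line and the WT line cannot be told apart. Total RNA was depleted of ribosomal RNA and sequenced with strand information, and each value is a normalized read count per gene, the authors' gene count divided by a scaling factor of its library. The libraries held 45628576 to 46297434 normalized counts in KO-c19 and 48554539 to 50123222 in WT, and 1 read was worth 0.822 to 1.11 normalized counts, so counting error is largest for genes near 10 normalized counts.

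Cells meet damage and shortage with a set of partly separate programmes. Kinases that phosphorylate the translation factor eIF2 lower bulk protein synthesis and raise the factor ATF4 (the integrated stress response), sensors in the endoplasmic reticulum raise its chaperones (the unfolded protein response), and heat shock factors do the same for the cytosol. NRF2 drives antioxidant enzymes, MTF1 drives metallothioneins, p53 answers DNA damage, HIF answers low oxygen, and TFEB and its relatives drive lysosomes and autophagy. Ribosomes that stall or collide are handled by their own quality control factors and by the kinase ZAK, which signals to the p38 and JNK kinases. Here 17 lists of textbook members of such pathways were followed, each split into regulators and targets or effectors. Genes were named by a rule on size and p, and others named to describe a list were picked after their values were seen.

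Nat10 was checked first. It had 1748, 1761 and 1710.0 normalized counts in KO-c19, against 6432, 6501 and 6428 in WT, a change of −1.89 ± 0.037 SE on the log2 scale (limma adjusted p = 1.91e-17), which left 27.0% of the WT mean. An exact two-sided permutation test of 3 against 3 libraries gave p = 0.1, the smallest that its 20 divisions allow. The mammary epithelial markers, 9 of 10 in the table, summed to 104086 to 112813 normalized counts in KO-c19 and 140611 to 148565 in WT. Of these, Krt8 and Krt18 were higher in KO-c19, whereas Epcam (963 against 6422 in WT), Cdh1 (5797 against 26262 in WT) and Krt14 (22.2 against 4959.8 in WT) were lower. Fibroblast markers, 4 of 9 in the table, summed to 838 to 904 in KO-c19 and 314 to 327 in WT, nearly all of it Pdgfra, while Col1a2 was listed at 0 in each of the 3 KO-c19 libraries. Leukocyte markers, 4 of 9 in the table, summed to 270 to 334 in KO-c19 and 461 to 494 in WT, with Cd68 higher and Csf1r lower in KO-c19. Endothelial markers, 2 of 7 in the table, summed to 9.86 to 21.3 in KO-c19 and 5.55 to 13.1 in WT, and adipocyte markers, 1 of 5 in the table, to 0 in KO-c19 and 1.10 to 1.80 in WT. The residual 18S ribosomal RNA gene Rn18s took 0.916% to 1.26% of the values in KO-c19 and 2.06% to 4.40% in WT, and its part in the results was not tested.

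Of all genes tested, 68.7% changed, 33.1% upward and 35.6% downward, in KO-c19 (limma on log2(normalized count + 1), Benjamini-Hochberg adjusted p under 0.05), and the libraries of the groups did not overlap for 71.2%. Changes of at least 2-fold were rarer, with 8.76% of genes rising and 6.43% falling that far. The 17 stress lists held 555 genes, of which 536 were in the table and 519 were tested. Among these, 171 rose, 272 fell and 76 did not pass, so the share that rose, 32.9%, was near the background of 33.1%, and the share that fell, 52.4%, was above that of 35.6%. The median change of the stress genes was −0.16 on the log2 scale, beside 0.00 over all genes tested. The lists parted widely. Most tested members fell in the lists of the proteasome, mitochondrial proteostasis, the integrated stress response, interferon, NF-kappaB, ribosome quality control, lipid peroxidation, heat shock and metal stress, although the lists of ribosome quality control and metal stress lost that majority with libraries scaled by totals, and the metal stress list also after quantile normalization. Most rose in the autophagy and energy-sensing lists, and in the remaining lists neither direction held most members in the reported fit. A rising majority appeared for hypoxia (16 of 31) and cell death (18 of 34) with TMM scaling. It also did with scaling by totals (17 and 21) and after quantile normalization (16 and 18). Cell death also had 18 rising without KO-c19 replicate 1 or WT replicate 2 or 3. With a filter of at least 50, 23 of 44 NRF2 members fell. All changes below are differences of mean log2(normalized count + 1), and folds are taken on the same scale, so that changes of low genes come out too small. Levels are not per length and are compared only within a gene. Wherever the 3 values of KO-c19 and the 3 of WT are given, the libraries of the groups did not overlap unless said otherwise. Such genes were named from these same values, so their lack of overlap describes them and adds no support.

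**Figure D1:**
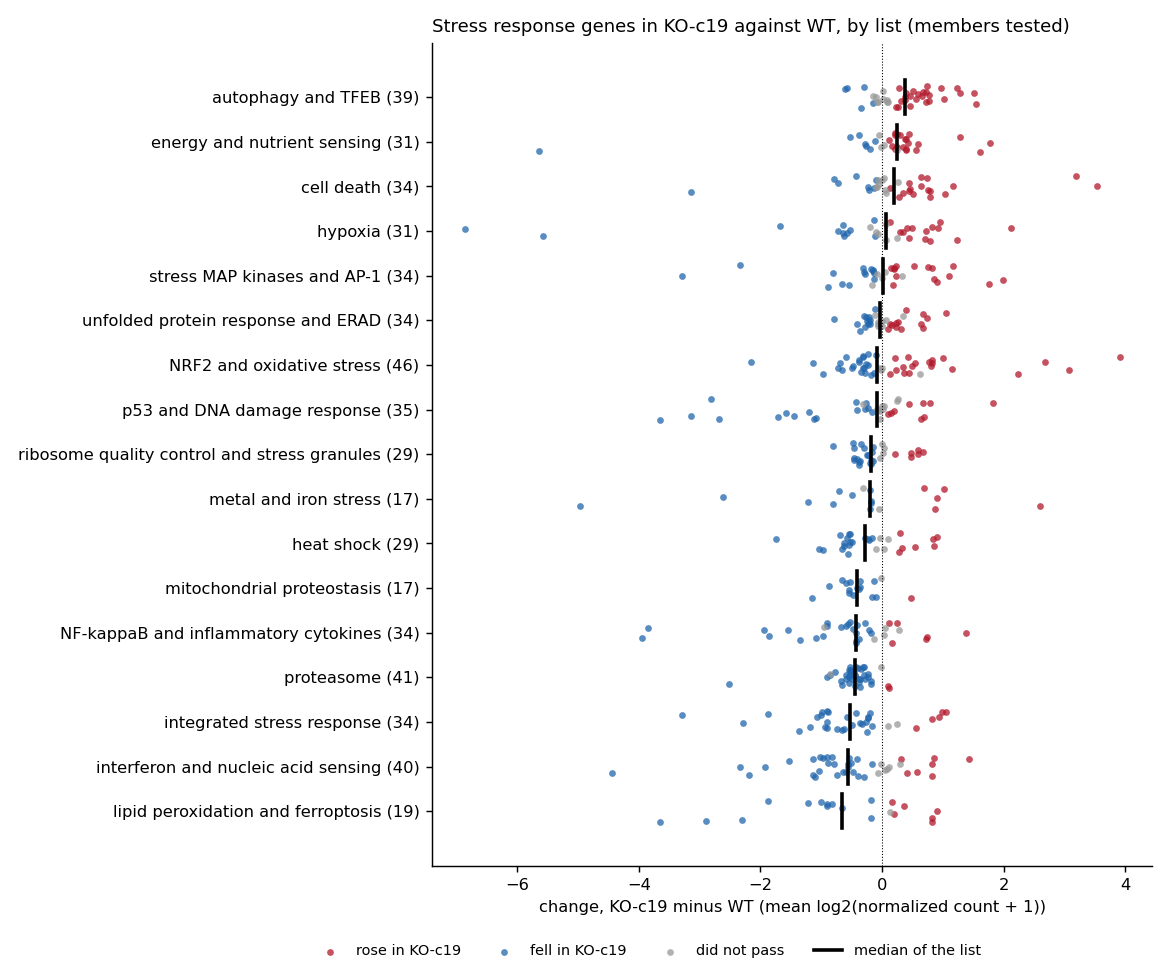
Change in KO-c19 against WT (difference of mean log2(normalized count + 1), x axis) for every tested member of the 17 stress lists, with the number tested in brackets and 1 point per gene. Red points rose and blue points fell (limma adjusted p under 0.05), grey points did not pass, and the black bar is the median of the list, from 0.39 for autophagy to −0.65 for lipid peroxidation and ferroptosis.

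Transcripts of most genes of the integrated stress response were lower in KO-c19. The values are RNA levels only, so the activity of the response and the phosphorylation of eIF2 were not tested. Of 34 tested members, 5 rose, 27 fell and 2 did not pass, with a median change of −0.53. All 8 regulators fell. Atf4, the transcription factor at the centre of the response, had 5869, 6136 and 5966 normalized counts in KO-c19, against 10789.6, 11543 and 11357 in WT. The change was −0.91 ± 0.037 SE (limma adjusted p = 3.38e-13), and the groups did not overlap. Eif2s1, the phosphorylated subunit of eIF2, had 8135, 7037 and 7046 normalized counts in KO-c19, against 12634, 12178 and 12049 in WT (−0.73 ± 0.049 SE, limma adjusted p = 4.23e-10). Eif2ak1, the eIF2 kinase that senses haem and relays mitochondrial stress, had 1864, 1915 and 1952 normalized counts in KO-c19, against 2882, 2985 and 2926 in WT. The 3 other eIF2 kinases changed less. Eif2ak3, which responds to the endoplasmic reticulum, changed by −0.36, Eif2ak4, which senses uncharged transfer RNA, by −0.19, and Eif2ak2, which senses double-stranded RNA, by −0.17. With libraries scaled by totals the last 2 did not pass (limma adjusted p = 0.0581 for Eif2ak4 and 0.283 for Eif2ak2), nor did Eif2ak2 without KO-c19 replicate 3 (limma adjusted p = 0.0660). The phosphatase subunits that end the response, Ppp1r15a (−0.33) and Ppp1r15b (−0.23), also fell.

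Among its 26 tested targets, 19 fell and 5 rose. The steepest decreases were in amino acid and one-carbon enzymes and in feedback factors. Mthfd2, a mitochondrial folate enzyme, had 1084, 997 and 989 normalized counts in KO-c19, against 4889, 5100.2 and 5064 in WT. That was 4.90-fold lower (limma adjusted p = 2.37e-17). Asns, asparagine synthetase, had 2134, 2313 and 2233 normalized counts in KO-c19, against 4918, 5218 and 5024 in WT and was 2.27-fold lower. Aldh18a1, the first enzyme of proline synthesis, was 2.57-fold lower with 1975 ± 79.1 normalized counts in KO-c19, against 5071 ± 186 in WT (SD, n = 3 each). Psat1 of serine synthesis was 2.10-fold lower, with 10355 ± 111 normalized counts in KO-c19, against 21800.0 ± 657 in WT. Atf3, a stress-induced repressor, had 27.1, 37.5 and 34.5 normalized counts in KO-c19, against 291, 307 and 398 in WT, and Chac1, which degrades glutathione, had 159, 191 and 195 normalized counts in KO-c19, against 558, 690.4 and 758 in WT. In both genes every KO-c19 library lay below every WT library. Trib3 (−0.99), Nupr1 (−0.93), the amino acid transporters Slc7a5 (−1.002) and Slc3a2 (−0.90), and the aminoacyl-tRNA synthetases Gars (−0.90), Cars (−0.49) and Sars (−0.43) fell too.

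The 5 members that rose were Atf5, Cebpb, Slc7a11, Ddit3 and Stc2. Cebpb, a bZIP factor that partners ATF4, had 3754, 4349 and 5002 normalized counts in KO-c19, against 1999, 2039 and 2247 in WT. Atf5, a relative of ATF4 that is translated under eIF2 phosphorylation, had 1178, 1243 and 1279 normalized counts in KO-c19, against 602, 645 and 615 in WT. Ddit3, which encodes the pro-apoptotic factor CHOP, had 177, 168 and 171 normalized counts in KO-c19, against 106, 129.9 and 113 in WT (0.56 ± 0.11 SE, limma adjusted p = 1.31e-04). Slc7a11, the cystine transporter, had 776, 679 and 749 normalized counts in KO-c19, against 416, 397 and 433 in WT. All of these were above WT in each of the 3 KO-c19 libraries, so members of the list moved both ways. Ddit4 (0.24, limma adjusted p = 0.0516) and Pycr1 (0.10, limma adjusted p = 0.416) did not pass. Ddit4 passed as higher without WT replicate 2 or 3, with a filter of at least 50 normalized counts, and with scaling by TMM, totals or quantiles (limma adjusted p = 0.00760 to 0.0442).

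ATF4 binds with C/EBP partners at C/EBP-ATF response elements, here searched as TGATGNAA on both strands in RefSeq promoters of mouse build GRCm38.p6 (250 bases before to 50 bases after the start of the gene). These letters were in 3.97% of all 32851 promoters, and a gene can have several promoters. They were in 7 of 27 promoters of the 23 matched members that fell. They were also in 1 of 6 promoters of the 5 that rose, and in 1 of 2 of those that did not pass. The 250 bases before the start are shown for 3 members that fell (Asns, Chac1 and Atf3) and for the riser, Slc7a11, since the same letters stand before genes that moved in opposite directions; capitals mark the element on either strand, each sequence is written 5′ to 3′ on the strand of its gene, and a match is a description and not a bound site. Asns lies on the minus strand at chr6:7693210-7693459, Chac1 on the plus strand at chr2:119350992-119351241, Atf3 on the minus strand at chr1:191183334-191183583 and Slc7a11 on the minus strand at chr3:50443614-50443863. The element began 23 bases before the start in Asns, 193 in Chac1, 110 in Atf3, and 66 and 47 in Slc7a11.
Asns: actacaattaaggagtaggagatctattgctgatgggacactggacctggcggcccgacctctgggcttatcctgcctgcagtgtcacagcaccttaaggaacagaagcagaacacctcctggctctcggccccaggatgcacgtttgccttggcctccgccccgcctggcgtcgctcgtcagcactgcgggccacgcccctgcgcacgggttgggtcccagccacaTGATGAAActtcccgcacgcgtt
Chac1: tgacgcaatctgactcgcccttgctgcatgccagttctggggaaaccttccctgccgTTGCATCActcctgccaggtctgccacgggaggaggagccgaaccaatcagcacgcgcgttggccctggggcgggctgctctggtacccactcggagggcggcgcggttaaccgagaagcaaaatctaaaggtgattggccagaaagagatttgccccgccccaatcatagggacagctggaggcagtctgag
Atf3: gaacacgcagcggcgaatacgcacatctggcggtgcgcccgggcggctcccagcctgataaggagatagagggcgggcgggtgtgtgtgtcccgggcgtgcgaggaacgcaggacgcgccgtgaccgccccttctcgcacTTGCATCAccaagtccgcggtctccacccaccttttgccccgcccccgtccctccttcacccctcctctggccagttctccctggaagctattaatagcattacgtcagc
Slc7a11: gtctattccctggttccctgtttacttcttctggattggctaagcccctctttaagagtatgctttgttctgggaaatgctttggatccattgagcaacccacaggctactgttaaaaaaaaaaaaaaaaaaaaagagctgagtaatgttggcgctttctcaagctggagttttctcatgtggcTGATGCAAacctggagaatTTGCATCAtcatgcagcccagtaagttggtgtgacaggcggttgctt

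Genes of the unfolded protein response of the endoplasmic reticulum moved both ways, at shares near those of all genes. The shares that rose and that fell were 38.2% each, beside 33.1% and 35.6% of all genes tested. Of 34 members, 13 rose, 13 fell and 8 did not pass, with a median of −0.03, which became 0.07, with 16 rising and 9 falling, when libraries were scaled by their totals and 0.08, with 15 rising and 10 falling, after quantile normalization. Among the regulators Ern1, Atf6 and Xbp1 rose. Atf6, a membrane-bound factor released by cleavage, had 7098, 7239 and 7304 normalized counts in KO-c19, against 4562, 4469.6 and 4568 in WT (0.67 ± 0.035 SE, limma adjusted p = 1.10e-11). Ern1, which encodes the sensor IRE1, had 3274, 3333 and 3203 normalized counts in KO-c19, against 2059.9, 2043 and 2030.5 in WT. Xbp1, whose messenger RNA is spliced by IRE1, had 2473, 2457 and 2417 normalized counts in KO-c19, against 1359.8, 1465 and 1577 in WT, and the values sum over its spliced and unspliced forms. Ern1 was 1.60-fold, Atf6 1.59-fold and Xbp1 1.67-fold higher, with no KO-c19 library as low as a WT library.

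The chaperones below these sensors did not follow as a group. Dnajb9, a co-chaperone of BiP and a known XBP1 target, had 995.02, 843 and 829 normalized counts in KO-c19, against 419.6, 432 and 424 in WT and was 2.08-fold higher. Ero1b, an oxidase that forms disulphide bonds, was 1.56-fold higher, and Dnajc3, the inhibitor of the kinase PERK, 1.24-fold higher. Dnajb11, another co-chaperone of BiP, fell in every KO-c19 library, with 1983, 2042 and 2017 normalized counts in KO-c19, against 3510.0, 3446 and 3428 in WT (−0.78 ± 0.042 SE, limma adjusted p = 1.68e-11). Hspa5, which encodes BiP itself, had 45356, 42664 and 41889 normalized counts in KO-c19, against 48609, 46093 and 45572 in WT, a change of −0.11 that missed the threshold (limma adjusted p = 0.0747) and passed in a fit of the KO-c19 and WT libraries alone (limma adjusted p = 0.0261). Herpud1 (−0.41), Sdf2l1 (−0.37) and Calr (−0.30) fell, and Pdia6 (0.23) and the ubiquitin ligase Syvn1 (0.27) rose. The letters CCAAT and CCACG, parts of the element bound by ATF6 and NF-Y, both occurred in 11.7% of all promoters. Each was searched anywhere in the promoter, on either strand and at any distance, so the element itself was not searched. Both occurred in 10 of 13 promoters of matched members that rose, 9 of 12 of those that fell and 4 of 7 of those that did not pass.

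**Figure D2:**
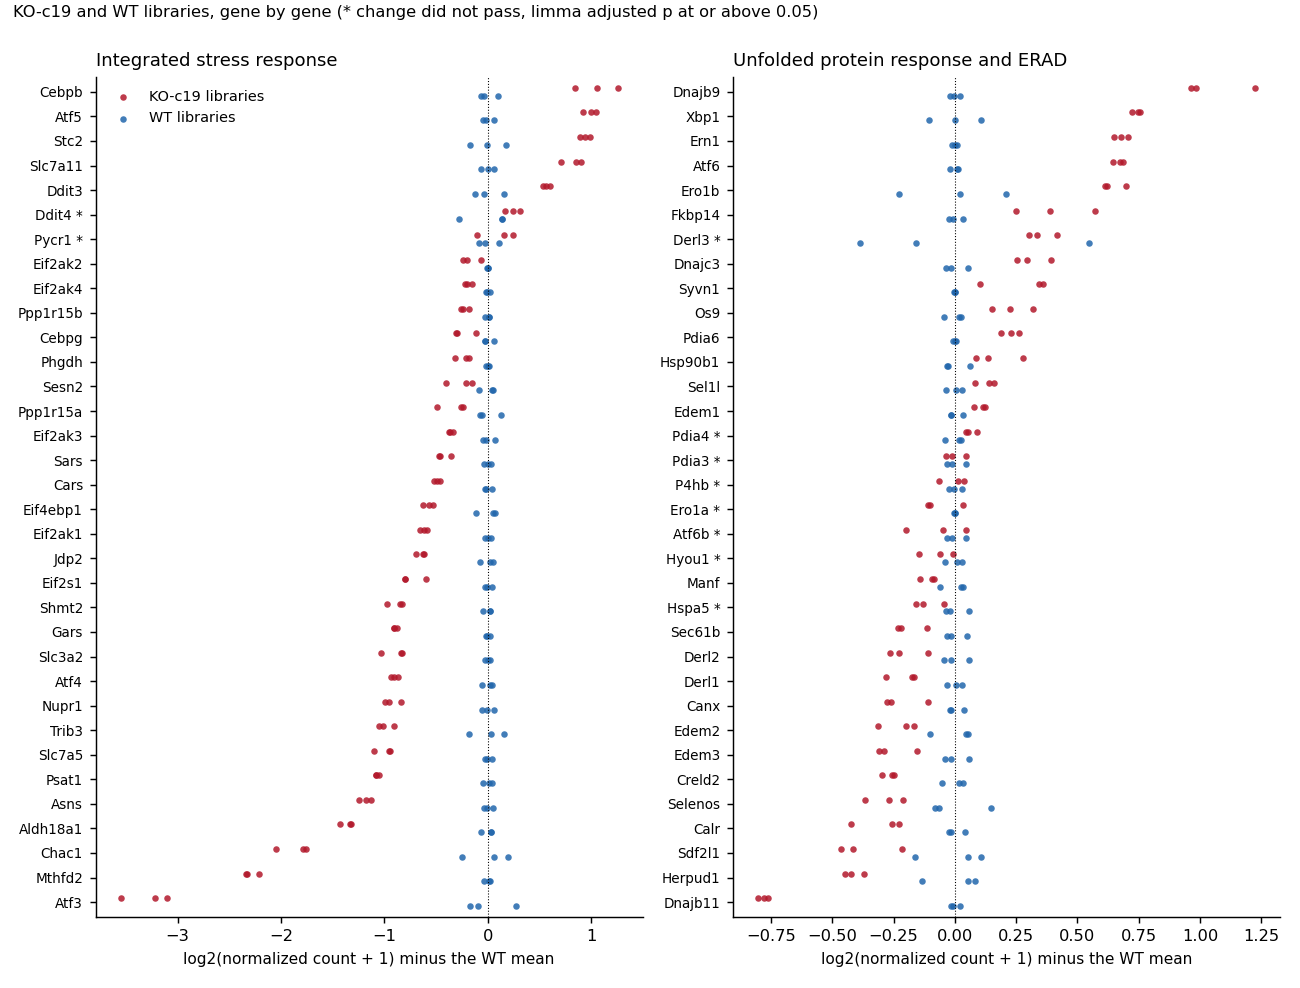
Each KO-c19 library (red) and each WT library (blue) for every tested member of the integrated stress response and of the unfolded protein response with endoplasmic reticulum degradation (ERAD), as log2(normalized count + 1) minus the WT mean (x axis), 1 row per gene in order of change. In the first panel 27 genes fell and 5 rose, with Atf3 lowest, and in the second 13 rose and 13 fell; an asterisk marks a change that did not pass.

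Cytosolic chaperones mostly fell, and the inducible Hspa1b was an exception. Of 29 heat shock members tested, 7 rose, 18 fell and 4 did not pass, with a median of −0.28. Hsp90ab1, the constitutive HSP90, had 118132, 129050.0 and 128565 normalized counts in KO-c19, against 180009, 181141 and 184163 in WT, one of the largest losses by absolute count. Its inducible partner Hsp90aa1 was 2.06-fold lower, with 25486 ± 3348 normalized counts in KO-c19, against 52211 ± 1048 in WT (SD, n = 3 each). Stip1, which couples HSP70 to HSP90, had 11853, 13108 and 12595 normalized counts in KO-c19, against 24664, 23856 and 24754 in WT and was 1.95-fold lower (limma adjusted p = 3.62e-13). Cct5, a subunit of the CCT chaperonin that folds actin and tubulin, had 22706, 22619.7 and 22116 normalized counts in KO-c19, against 34380.0, 34574 and 34989 in WT, and the subunits Tcp1 (−0.66) and Cct3 (−0.53) fell with it. Cryab, a small heat shock protein, had 202, 230.1 and 213 normalized counts in KO-c19, against 669, 730.1 and 773 in WT, the steepest fall of the list at 3.35-fold. Hspa1b, an inducible HSP70, had 11616, 12602 and 12955 normalized counts in KO-c19, against 6626, 6528 and 6681 in WT, a 1.87-fold rise whose reads cannot be told apart with certainty from those of its near-identical copy Hspa1a. Hsf1, the main heat shock factor, fell by 0.49 on the log2 scale, whereas Hsf2 did not pass (limma adjusted p = 0.554). Hspa4l (0.85), Dnajb4 (0.85) and Hspb8 (0.34) rose.

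All 15 tested genes for mitochondrial chaperones, proteases and prohibitins fell. Their median change was −0.47. Hspd1, the HSP60 chaperonin, had 17735, 15886 and 15984 normalized counts in KO-c19, against 37507, 35914 and 36938 in WT (−1.16 ± 0.045 SE, limma adjusted p = 2.46e-13), and its co-chaperonin Hspe1 had 3569.5, 3672 and 3873 normalized counts in KO-c19, against 6757, 6685 and 6973 in WT. Both were lower in every KO-c19 library. Trap1, the mitochondrial HSP90, was 1.498-fold lower with 3983 ± 145 normalized counts in KO-c19, against 5968 ± 158 in WT (SD, n = 3 each), and the protease Htra2 was 1.58-fold lower with 2001 ± 101 normalized counts in KO-c19, against 3156 ± 70.5 in WT. With libraries scaled by totals, or after quantile normalization, 12 fell. The 3 that did not pass were the inner-membrane proteases Spg7 (−0.10) and Afg3l2 (−0.13) and the matrix unfoldase Clpx (−0.16), with limma adjusted p = 0.966, 0.467 and 0.288 under scaling by totals. Clpx also did not pass without KO-c19 replicate 3 (limma adjusted p = 0.0525) or WT replicate 1 (limma adjusted p = 0.0506). Spg7 also did not pass when any of the WT libraries or KO-c19 replicate 1 or 3 was left out (limma adjusted p = 0.0640 to 0.139). Of the 2 relay genes that carry mitochondrial stress to the eIF2 kinases, Dele1 rose by 0.48 and Oma1 did not pass (−0.01, limma adjusted p = 0.944).

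Protein disposal moved in opposite directions in its 2 branches. Of 39 genes for proteasome subunits, activators and assembly, 37 fell, none rose, and Psmb4 and Psmb9 did not pass, with a median of −0.46. Without KO-c19 replicate 1 the fall of Psmb9 passed (limma adjusted p = 0.0312). Psmd7, a lid subunit, had 5173, 5355 and 5141 normalized counts in KO-c19, against 9887, 9469 and 10031 in WT (−0.91 ± 0.036 SE, limma adjusted p = 2.27e-13). Psmd2, a large base subunit, had 10381, 10675 and 10138 normalized counts in KO-c19, against 17644, 17588 and 18148 in WT, and Psmd12, a lid subunit, had 5265, 5105 and 5017 normalized counts in KO-c19, against 7817, 7655 and 7640.0 in WT. Psme3, the nuclear activator PA28gamma, had 6143, 6762 and 6730.0 normalized counts in KO-c19, against 11895, 11739.6 and 11641 in WT and was 1.80-fold lower. The 4 genes had no overlap between the groups, which their choice by small p favoured. Of the 41 genes of the whole list 40 had none, beside 71.2% of all genes tested. Among subunits of the constitutive core and cap that fell, the change ranged from −0.17 for Psma7, which did not pass with libraries scaled by totals (limma adjusted p = 0.0863), to −0.91 for Psmd7. The immunoproteasome subunit Psmb8 fell furthest, with 21.4, 24.3 and 22.3 normalized counts in KO-c19, against 134, 142 and 125 in WT. Nfe2l1 (0.12), the factor that drives proteasome genes when the proteasome is impaired, and Ddi2 (0.10), the protease that activates it, rose slightly. Without WT replicate 3 neither passed (limma adjusted p = 0.0685 for Nfe2l1 and 0.0503 for Ddi2), nor did Ddi2 without WT replicate 1 (limma adjusted p = 0.128).

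Autophagy and lysosome genes mostly rose. Of 39 tested, 25 rose, 5 fell and 9 did not pass, with a median of 0.39. Ulk1, the kinase that starts autophagy, had 3560.4, 4054 and 4143 normalized counts in KO-c19, against 1879, 1975 and 1949 in WT (1.02 ± 0.05 SE, limma adjusted p = 5.14e-12). Mitf had 482, 502 and 497 normalized counts in KO-c19, against 185, 171 and 151 in WT, and its relatives Tfeb (1.95-fold) and Tfe3 (1.43-fold) rose as well, so all 3 listed factors of this family were higher. Sqstm1, the receptor p62 that carries ubiquitinated cargo and is itself degraded, had 15225, 16294 and 16241 normalized counts in KO-c19, against 9148, 9459 and 9288 in WT. Calcoco1, another cargo receptor, had 913, 1014 and 1072 normalized counts in KO-c19, against 327, 341 and 386 in WT, a 2.84-fold rise, and Ctsd, the lysosomal protease cathepsin D, had 10792, 11504 and 11898 normalized counts in KO-c19, against 4765, 5003 and 4746 in WT. The cargo receptors Nbr1 (1.64-fold) and Optn (1.68-fold) and the lipid-anchored markers Map1lc3a (2.42-fold), Gabarapl1 (1.57-fold) and Gabarap (1.47-fold) were also higher. The 5 genes that fell were Becn1 (−0.57), Atg5 (−0.61), Tax1bp1 (−0.34), Lamp1 (−0.29) and Gabarapl2 (−0.15), the last of which did not pass with libraries scaled by totals (limma adjusted p = 0.365) or without KO-c19 replicate 3 (limma adjusted p = 0.0829) or WT replicate 2 (limma adjusted p = 0.0872). With a filter of at least 50, 7 fell, since Atg3 (−0.14) and Atg4b (−0.098) then passed as lower. Atg3 also did so without KO-c19 replicate 1 (limma adjusted p = 0.00611) or WT replicate 3 (limma adjusted p = 0.0134). Atg4b did so without KO-c19 replicate 2 (limma adjusted p = 0.0397). Libraries scaled by totals, or quantile normalization, gave 28 rising and 4 falling. CACGTG, the core of the element bound by TFEB, was in 7.15% of all promoters. It was in 3 of 24 promoters of matched members that rose, 2 of 5 of those that fell and 3 of 9 of those that did not pass.

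**Figure D3:**
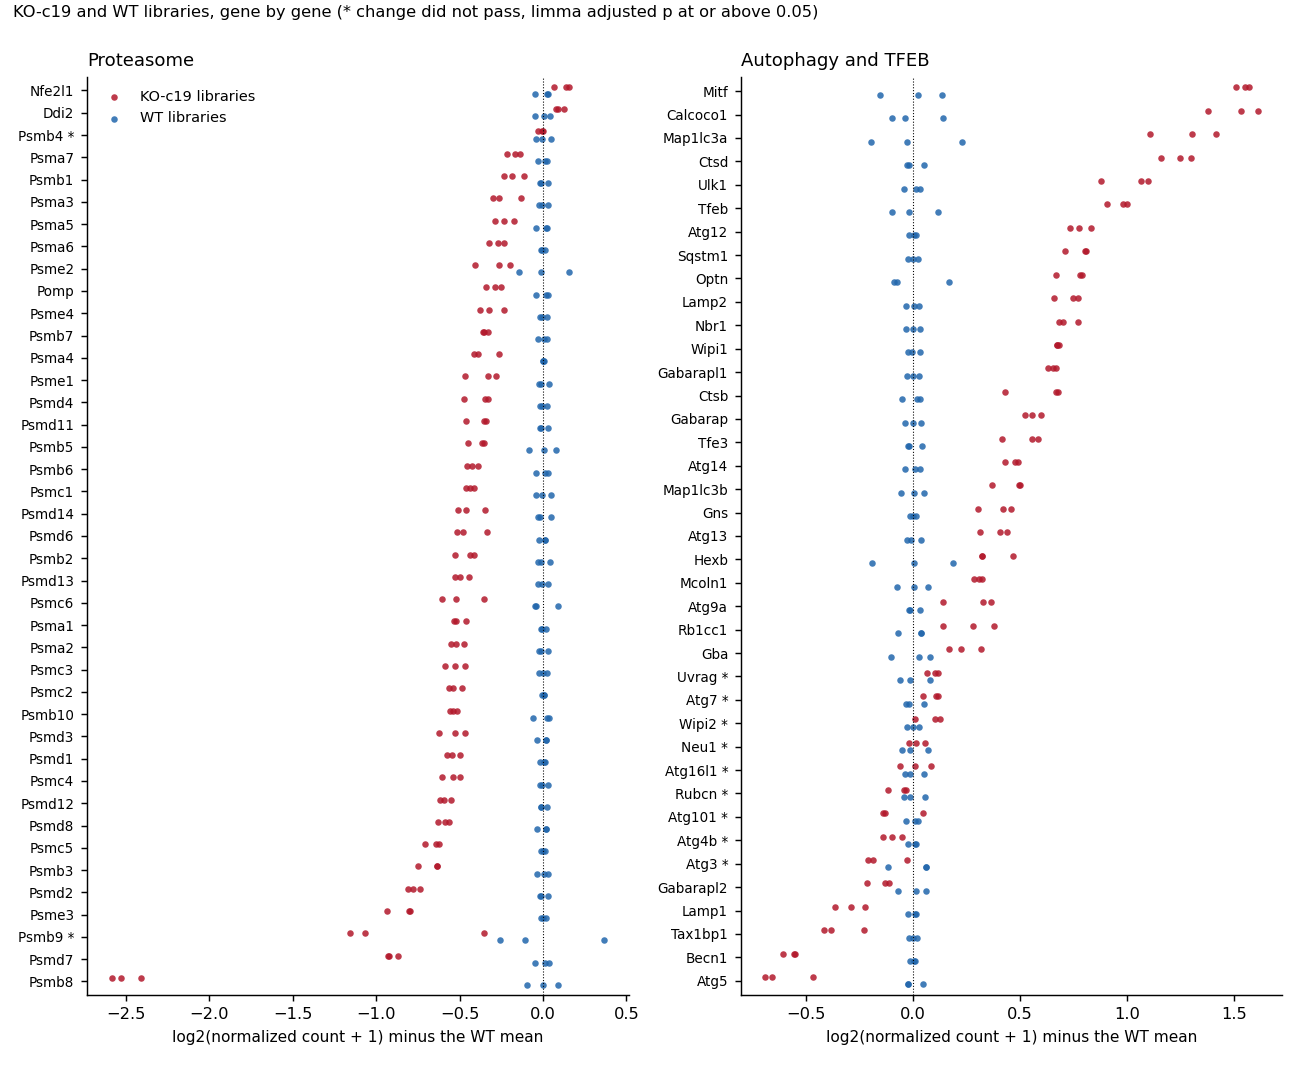
Each KO-c19 library (red) and each WT library (blue) for the 41 proteasome list members and the 39 autophagy and lysosome members tested, as log2(normalized count + 1) minus the WT mean (x axis), 1 row per gene. Of the proteasome list 37 genes lie below WT and of the autophagy list 25 lie above it by the limma test; an asterisk marks a change that did not pass.

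Genes for ribosome collisions and stress granules fell modestly. Of 29 tested, 6 rose, 19 fell and 4 did not pass, and the median was −0.18; with libraries scaled by totals 7 rose and 13 fell, and after quantile normalization 8 rose and 15 fell. Map3k20, which encodes ZAK, the kinase that reads collided ribosomes, had 11739, 11581 and 11823 normalized counts in KO-c19, against 20905, 20351 and 20131 in WT (−0.80 ± 0.033 SE, limma adjusted p = 3.86e-13). The collision sensor Zfp598 (−0.14), Gcn1 (−0.18), Edf1 (−0.16) and the ribosomal scaffold Rack1 (−0.24) fell by less. With libraries scaled by totals the first 3 did not pass (limma adjusted p = 0.380 for Zfp598, 0.0835 for Gcn1 and 0.289 for Edf1), nor did Edf1 without WT replicate 3 (limma adjusted p = 0.0504). Usp10, a deubiquitinase that binds the stress granule protein G3BP1, had 7367, 7886 and 7873 normalized counts in KO-c19, against 10569, 10808 and 10932 in WT, and Ybx1, an abundant binder of messenger RNA, had 25338, 25417 and 25193 normalized counts in KO-c19, against 35520.2, 33794 and 35115 in WT. The granule scaffolds G3bp1 (−0.40) and Caprin1 (−0.39) fell as well. Zfp36l1 and Zfp36l2, which promote the decay of AU-rich messenger RNAs, rose, the first with 8123, 8858 and 9443 normalized counts in KO-c19, against 5667, 5464 and 5361 in WT and the second with 22084, 24104 and 24169.9 normalized counts in KO-c19, against 15513, 15659 and 15451 in WT. Pelo, which rescues stalled ribosomes, was 1.51-fold higher.

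The stress MAP kinase and AP-1 genes moved both ways, with 15 rising, 14 falling and 5 not passing of 34. The shares, 44.1% rising and 41.2% falling, stood beside 33.1% and 35.6% of all genes tested. With libraries scaled by totals, or after quantile normalization, 16 rose and 9 fell. Map3k5, which encodes the oxidation-sensitive kinase ASK1, moved opposite to Map3k20. It had 3561, 3690.2 and 3824 normalized counts in KO-c19, against 943, 933 and 908 in WT, a 3.97-fold rise (limma adjusted p = 5.51e-17). Phosphatases that switch MAP kinases off moved both ways. Dusp6, which acts on ERK, had 13003, 13329 and 12985 normalized counts in KO-c19, against 5907, 6421 and 6085 in WT, Dusp10, which acts on p38 and JNK, had 2965, 3282 and 3285 normalized counts in KO-c19, against 1408, 1462 and 1369 in WT, and Dusp4 was 1.88-fold higher with 5584 ± 216 normalized counts in KO-c19, against 2968 ± 72.5 in WT (SD, n = 3 each). Dusp8, which also acts on JNK and p38, ran the other way with 261, 256 and 240.5 normalized counts in KO-c19, against 1336, 1317 and 1202 in WT. Of the AP-1 subunits, Jun (1.81-fold) and Fosl1 (1.69-fold) rose and Junb (−0.65) and Jund (−0.88) fell. Egr1 was 3.38-fold higher, with 2874 ± 279.6 normalized counts in KO-c19, against 848 ± 43.6 in WT.

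Antioxidant genes did not move as a block, although their main regulator was higher. Nfe2l2, which encodes NRF2, had 7175, 7106 and 7735 normalized counts in KO-c19, against 4229, 4110.0 and 4192 in WT (0.81 ± 0.038 SE, limma adjusted p = 2.76e-12), and Keap1, which sends NRF2 to degradation, rose by 0.44. Of 46 members tested, 19 rose, 23 fell and 4 did not pass; the median of −0.08 became 0.02 with libraries scaled by totals. Nqo1, a quinone reductase and a standard NRF2 target, had 994, 1100.3 and 1196 normalized counts in KO-c19, against 182, 169 and 160.0 in WT, a 6.40-fold rise. Hmox1, the haem oxygenase that is another standard target, had 138, 128 and 148 normalized counts in KO-c19, against 606, 596 and 643 in WT, which was 4.44-fold lower. These 2 genes, both commonly read as NRF2 activity, thus had libraries that did not overlap with WT on opposite sides. Mgst1, a membrane glutathione transferase, had 174, 173 and 164 normalized counts in KO-c19, against 21.7, 17.8 and 18.6 in WT, and Srxn1, which repairs peroxiredoxins, was 1.78-fold higher with 2905 ± 62.6 normalized counts in KO-c19, against 1634 ± 33.9 in WT (SD, n = 3 each). Gstm1 was 4.71-fold and Gstm2 2.00-fold higher, with reads that may be shared among these near-identical transferases. Sod3, the secreted superoxide dismutase, had 51.8, 42.6 and 57.9 normalized counts in KO-c19, against 0.902, 5.55 and 2.19 in WT, so its WT libraries lay near the floor.

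Many other enzymes of the same system were lower. Prdx3, the mitochondrial peroxiredoxin, had 2192, 2059.9 and 2116 normalized counts in KO-c19, against 4627, 4745 and 4561 in WT (−1.13 ± 0.046 SE, limma adjusted p = 3.40e-13), and catalase, Cat, was 1.95-fold lower. The pentose phosphate enzymes G6pdx (−0.37), Pgd (−0.72) and Taldo1 (−0.60) fell, as did malic enzyme, Me1 (−0.50), another source of NADPH. The glutathione synthesis subunit Gclc did not pass (−0.02, limma adjusted p = 0.719). TGACNNNGC, the core of the antioxidant response element, was in 12.4% of all promoters. It was in 4 of 24 promoters of matched members that rose, 8 of 24 of those that fell and 0 of 2 of those that did not pass.

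Iron and other metal genes showed large single changes. Of 17 tested, 5 rose, 10 fell and 2 did not pass. That was 29.4% rising and 58.8% falling, beside 33.1% and 35.6% of all genes tested. With libraries scaled by totals or after quantile normalization, 5 rose and 6 fell. Cp, ceruloplasmin, which oxidises iron for export, had 5295, 4766 and 5258 normalized counts in KO-c19, against 767, 889 and 881 in WT, a 6.04-fold rise (limma adjusted p = 1.05e-16). Fth1, the heavy chain of the iron store ferritin, had 70659, 77823 and 79299 normalized counts in KO-c19, against 39786, 40515 and 41262 in WT; pseudogenes of Fth1 can share its reads. Slc39a14, an importer of zinc and iron, had 7251, 7409.6 and 7479 normalized counts in KO-c19, against 4534, 4703 and 4519 in WT, whereas the zinc importer Slc39a10 had 2096, 1923 and 1890.4 normalized counts in KO-c19, against 3419, 3423 and 3480.3 in WT. Steap3, an iron reductase, had 35.3, 29.4 and 30.1 normalized counts in KO-c19, against 191, 185 and 219 in WT, and the transferrin receptor gene Tfrc was 2.32-fold lower with 11925 ± 1432 normalized counts in KO-c19, against 27594 ± 643 in WT (SD, n = 3 each). Slc40a1, the iron exporter ferroportin, was listed at 0 in each KO-c19 library, against 39.7, 39.96 and 17.5 normalized counts in WT.

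The metallothioneins, small proteins that bind zinc and copper, rose. Mt2 had 2628, 2665 and 2602 normalized counts in KO-c19, against 1469, 1399 and 1464 in WT (0.87 ± 0.051 SE, limma adjusted p = 5.68e-11), and Mt1 had 3549, 4014 and 4157 normalized counts in KO-c19, against 1812, 1949 and 1997 in WT (1.02 ± 0.063 SE, limma adjusted p = 2.45e-10). Every KO-c19 library lay above every WT library in both genes, while the metal-sensing factor Mtf1 stayed short of the threshold (−0.05, limma adjusted p = 0.472) and the zinc exporter Slc30a1 fell by 0.49. The metal response element bound by MTF1 was searched as TGCGCNC on both strands and was in 15.4% of all promoters. Among matched members of the metal list, it was in 2 of 6 promoters of those that rose. It was also in 4 of 15 of those that fell and 0 of 2 of those that did not pass. It is shown for Mt2, whose level moved in opposite directions in the 2 knockout lines. In the RefSeq promoter on the plus strand of chromosome 8 (chr8:94172368-94172617, GRCm38.p6, 250 bases before the start), capitals mark the match, which begins 128 bases before the start. A further Mt2 match lay 4 bases after the start and is not printed, and the Mt1 promoter held 1 match, 20 bases after its start. Other spellings of the element were not searched, so a stretch without a match may still hold an element.
Mt2: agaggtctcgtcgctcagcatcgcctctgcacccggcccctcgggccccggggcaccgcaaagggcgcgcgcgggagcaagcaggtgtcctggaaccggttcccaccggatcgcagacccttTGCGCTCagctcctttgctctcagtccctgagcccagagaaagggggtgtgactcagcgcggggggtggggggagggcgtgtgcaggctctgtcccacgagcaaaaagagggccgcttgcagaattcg

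Of 19 genes of lipid peroxidation and ferroptosis, a form of death through oxidised membrane lipids, 12 fell and 6 rose, with a median of −0.65. Scd1, a desaturase that makes monounsaturated fatty acids, had 747, 834 and 891 normalized counts in KO-c19, against 5313, 6409 and 6732 in WT, a 7.44-fold decrease (limma adjusted p = 3.92e-12). Its relative Scd2 had 17407, 19229 and 19724 normalized counts in KO-c19, against 80466, 98198 and 101679 in WT. Acsl3, which loads monounsaturated fatty acids onto coenzyme A, had 2033, 2001 and 1976 normalized counts in KO-c19, against 3574, 3785 and 3893 in WT, and Lpcat3, which puts polyunsaturated fatty acids into membranes, had 976, 986 and 1004 normalized counts in KO-c19, against 1859.9, 2092 and 2028 in WT. Nox4, an oxidase that makes hydrogen peroxide, was 12.5-fold lower with 37.8, 22.3 and 31.2 normalized counts in KO-c19, against 392, 386 and 371 in WT. Of the protective genes, Gpx4, the phospholipid peroxidase (1.28-fold), and Aifm2, which encodes FSP1 (1.78-fold), rose, and Dhodh (1.57-fold) and Gch1 (1.77-fold) fell.

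Genes of energy and nutrient sensing rose in 20 of 31 cases and fell in 7 (4 with libraries scaled by totals), with a median of 0.24. Sesn3, a sestrin that restrains mTORC1, had 4242, 4222 and 4414 normalized counts in KO-c19, against 1802, 1724 and 1773 in WT and was 2.43-fold higher (limma adjusted p = 9.80e-15). Pink1, the kinase that marks damaged mitochondria for removal, had 1139, 1181 and 1238 normalized counts in KO-c19, against 402, 389.6 and 368 in WT. Txnip, which restrains glucose uptake and binds thioredoxin, had 1328, 1376 and 1398 normalized counts in KO-c19, against 391, 376 and 423 in WT. Its closest relative on the list, Arrdc4, which is regulated by the same glucose-responsive factor, moved the opposite way, with 0, 1.01 and 0 normalized counts in KO-c19, against 66.8, 54.4 and 65.7 in WT. The mTORC1 brake genes Tsc1 (0.39) and Tsc2 (0.39), and Mtor (0.34) and Rptor (0.55) themselves, rose, and the AMPK catalytic gene Prkaa1 fell by 0.38.

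Hypoxia genes were mixed, with 14 of 31 rising, 11 falling and 6 not passing. That was 45.2% rising and 35.5% falling, beside 33.1% and 35.6% of all genes tested, so the falling share was near the background. The number that rose was 16 with TMM scaling, 17 with libraries scaled by totals and 16 after quantile normalization. Egln3, an oxygen-sensing hydroxylase that HIF itself induces, had 4926, 5019 and 5286 normalized counts in KO-c19, against 1077, 1259.8 and 1180.2 in WT (2.12 ± 0.05 SE, limma adjusted p = 2.17e-16). Vegfa, the vascular growth factor, had 1288, 1314 and 1333 normalized counts in KO-c19, against 577, 543 and 541 in WT, and Pdk1, which turns pyruvate away from mitochondria, had 3714, 3599 and 3507 normalized counts in KO-c19, against 1744, 2002 and 1824 in WT. Mxi1, a MYC antagonist, was 1.76-fold higher with 2651 ± 84.4 normalized counts in KO-c19, against 1505 ± 48.0 in WT (SD, n = 3 each), and Bnip3 (1.89-fold) and P4ha1 (1.63-fold) rose with it. In contrast Car9, a carbonic anhydrase widely used as a marker of hypoxia, had 0, 2.03 and 5.99 normalized counts in KO-c19, against 329, 310.0 and 323 in WT, and Adm, adrenomedullin, was listed at 0 in every library of KO-c19, against 32.5, 56.6 and 54.8 normalized counts in WT. Pfkfb3 was 3.19-fold lower and Hk2, hexokinase, 1.66-fold lower, so glycolytic targets were among those that fell. The core letters ACGTG of the HIF element, which lie within CACGTG, were in 19.6% of all promoters. They were in 9 of 19 promoters of matched members that rose, 9 of 12 of those that fell and 5 of 8 of those that did not pass.

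Of 35 p53 and DNA damage genes, 9 rose, 16 fell and 10 did not pass. That was 25.7% rising and 45.7% falling, beside 33.1% and 35.6% of all genes tested. The median was −0.08, and 0.02 with libraries scaled by totals. Cdkn1a, which encodes the cell cycle inhibitor p21, had 1772, 2020.4 and 1972 normalized counts in KO-c19, against 581, 553 and 489.8 in WT, a 3.55-fold rise (limma adjusted p = 5.23e-14). Most other targets were lower. Plk2, a polo-like kinase, had 982, 978 and 1026 normalized counts in KO-c19, against 6636, 6297 and 6135 in WT. Gadd45b had 203, 225 and 213 normalized counts in KO-c19, against 2630.2, 2689 and 2712 in WT and was 12.5-fold lower, and Gadd45a had 51.7, 48.5 and 46.3 normalized counts in KO-c19, against 175, 162 and 149 in WT. Perp, a membrane protein of desmosomes and apoptosis, had 4949.9, 4894 and 4999 normalized counts in KO-c19, against 10906, 10925 and 10454 in WT. Tigar was 3.00-fold, Ccng1 2.30-fold and Btg2 2.74-fold lower. Phlda3 (1.62-fold), Ddb2 (1.59-fold) and the kinase gene Chek2 (1.56-fold) were higher, and Trp53 itself rose by 0.14.

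Cell death genes changed on both sides of the apoptotic balance, and of 34 tested 17 rose and 8 fell; with libraries scaled by totals 21 rose and 4 fell. The mitochondrial pore gene Bak1 had 3711, 4486 and 4474 normalized counts in KO-c19, against 6795, 7062 and 7091 in WT (−0.73 ± 0.065 SE, limma adjusted p = 1.65e-07), and Bid, which links death receptors to that pore, had 1271, 1351 and 1278 normalized counts in KO-c19, against 2164, 2291 and 2256 in WT. Bax fell by 0.43. Bcl2l11, which encodes the pro-apoptotic BIM, rose with 4205, 4391 and 4251 normalized counts in KO-c19, against 1979, 2119.9 and 2136 in WT, and Bok, a BAX relative, had 2288, 2362 and 2394 normalized counts in KO-c19, against 1442, 1561 and 1509 in WT. The protective Bcl2 (1.37-fold), Bcl2l1 (1.21-fold), Bcl2l2 (1.27-fold) and Xiap (1.35-fold) rose as well. Casp12, a caspase of the endoplasmic reticulum, had 318, 258 and 271 normalized counts in KO-c19, against 23.5, 32.2 and 35.1 in WT, a 9.16-fold rise. Among death receptors, Tnfrsf1a had 3079, 3452 and 3502 normalized counts in KO-c19, against 1489, 1541 and 1449.7 in WT, Fas fell to 10.7, 14.2 and 12.2 normalized counts in KO-c19, against 129.9, 123 and 97.5 in WT, and Cflar, the inhibitor of receptor signalling, was 1.70-fold higher with 6999.6 ± 168 normalized counts in KO-c19, against 4117 ± 91.3 in WT (SD, n = 3 each).

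Interferon and nucleic acid sensing genes fell in 27 of 40 cases and rose in 7, with a median of −0.55. Tlr3, the endosomal receptor of double-stranded RNA, had 348, 373 and 393 normalized counts in KO-c19, against 1935, 1823 and 1876 in WT (−2.34 ± 0.063 SE, limma adjusted p = 1.38e-15). Ifih1, the cytosolic sensor MDA5, had 168, 125 and 131 normalized counts in KO-c19, against 641, 617 and 659 in WT, and Irf1 had 1122, 1100.0 and 1123 normalized counts in KO-c19, against 1991, 2126 and 2181 in WT. Ddx58, the sensor RIG-I, fell by 0.64, whereas Mavs (0.42) and Sting1 (0.83), the adaptors through which RNA and DNA sensors signal, rose. Of 24 tested effector genes 19 fell. Oas1a had at most 3.29 normalized counts in KO-c19, against 54.2, 56.1 and 43.01 in WT. Bst2 (2.15-fold), Gbp2 (2.20-fold) and Rtp4 (2.19-fold) were lower, and Samhd1, which depletes nucleotides, had 3311, 3494 and 3484 normalized counts in KO-c19, against 5717, 5778 and 5680.5 in WT. Ifitm3, which blocks virus entry, ran against the list with 10542, 12089.7 and 12339.9 normalized counts in KO-c19, against 4214, 4283 and 4383 in WT, a 2.71-fold rise. Leukocyte markers summed to 270 to 334 normalized counts in KO-c19 and 461 to 494 in WT, and their part in these changes was not tested.

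NF-kappaB and inflammatory genes fell in 23 of 34 cases and rose in 6, with a median of −0.43. The number that rose was 3 without WT replicate 2 or without the trend and robust prior, and 4 or 5 without any other KO-c19 or WT library. Chuk, which encodes the kinase IKKalpha, had 1700.1, 1454 and 1467 normalized counts in KO-c19, against 2991, 2890.2 and 2791 in WT, and Ikbkg, which encodes its scaffold NEMO, moved the other way with 2335, 2289.6 and 2267 normalized counts in KO-c19, against 1443, 1385 and 1327 in WT. Tnfaip3, the feedback inhibitor A20, had 5154, 5235 and 5173 normalized counts in KO-c19, against 10175, 10333 and 10113 in WT and was 1.97-fold lower (limma adjusted p = 3.63e-14). Ptgs2, cyclooxygenase 2, had 5801, 5394 and 5847 normalized counts in KO-c19, against 16977, 16159 and 16334 in WT. Cxcl5, a chemokine for neutrophils, had 573, 552 and 527 normalized counts in KO-c19, against 2138, 2231 and 1970.2 in WT, and Icam1, an adhesion receptor, had 5.53, 3.04 and 3.63 normalized counts in KO-c19, against 70.2, 77.4 and 79.0 in WT. Cxcl2 had 0, 0 and 1.11 normalized counts in KO-c19, against 19, 13.3 and 20.8 in WT, which in KO-c19 is at most 1 read. The rises were led by Tnfaip2 with 10559, 11318 and 11598 normalized counts in KO-c19, against 4173, 4298 and 4289 in WT, a 2.62-fold change, and Csf3, the granulocyte growth factor, was 1.68-fold higher with 889.8 ± 62.8 normalized counts in KO-c19, against 530.3 ± 24.8 in WT (SD, n = 3 each).

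The other knockout line shared the WT libraries, so the 2 comparisons with WT are not independent, and the difference KO-c19 minus KO-c43 was tested directly in the same fit. It passed for 40.1% of all genes, 18.8% as higher in KO-c19 (3228) and 21.3% as lower (3660), and for 4324 as higher and 2894 as lower with libraries scaled by totals. For the integrated stress response, 5 members were higher and 16 lower in KO-c19 than in KO-c43, and the median against WT was −0.53 in KO-c19, beside −0.36 in KO-c43. Against WT, KO-c43 had 5 of these members rising and 24 falling, beside 32.3% and 34.0% of all genes. Energy-sensing genes differed the other way, with 14 of 31 higher and 4 lower in KO-c19 than in KO-c43, and a median against WT of 0.24 in KO-c19, beside 0.08 in KO-c43. The proteasome list had a median against WT of −0.44 in KO-c19, beside −0.41 in KO-c43, with 7 members higher and 7 lower in KO-c19 than in KO-c43.

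A set of 10 stress genes moved in opposite directions from WT in the 2 lines, with a difference of at least 2-fold between the lines. How many of all genes tested did so was not counted, so the number is a description without a background. Stc2, a secreted glycoprotein induced by ATF4, had 227, 219 and 212 normalized counts in KO-c19 libraries, 0, 0 and 0 in KO-c43 libraries and 101, 113 and 128 in WT libraries, so it was higher than WT in KO-c19 and listed at 0 throughout KO-c43. Mt2 had 2628, 2665 and 2602 normalized counts in KO-c19 libraries, 533, 476 and 485 in KO-c43 libraries and 1469, 1399 and 1464 in WT libraries, a difference between the lines of 2.40 ± 0.051 SE (limma adjusted p = 2.81e-16), and Mt1 had 3549, 4014 and 4157 normalized counts in KO-c19 libraries, 1319.7, 1285 and 1153 in KO-c43 libraries and 1812, 1949 and 1997 in WT libraries. Gsdmd, which encodes the pore former of pyroptosis, had 298, 346 and 351 normalized counts in KO-c19 libraries, 93.0, 77.6 and 78.5 in KO-c43 libraries and 212, 211 and 211 in WT libraries (1.99 ± 0.1 SE, limma adjusted p = 6.21e-11). In the 4 genes so far KO-c19 was above and KO-c43 below WT in every library. The order was turned round for 3 others. Vcam1, an adhesion receptor, had 265, 285 and 322 normalized counts in KO-c19 libraries, 2645, 2763 and 2992 in KO-c43 libraries and 1085, 1056 and 1027 in WT libraries (−3.27 ± 0.067 SE, limma adjusted p = 2.12e-16). Ifit2 had 122, 95.2 and 92.4 normalized counts in KO-c19 libraries, 413, 397 and 435 in KO-c43 libraries and 197, 218 and 222 in WT libraries, and Ifit1 had 37.8, 25.3 and 26.7 normalized counts in KO-c19 libraries, 96.8, 106 and 106 in KO-c43 libraries and 37.8, 47.7 and 47.1 in WT libraries, both being interferon-induced binders of RNA. The highest KO-c19 library and the lowest WT library of Ifit1 were equal at the digits printed (37.8). The fall of Ifit1 against WT did not pass without KO-c19 replicate 2 (−0.46, limma adjusted p = 0.0544). The remaining 3, Mapkapk3, Bmf and Bcl3, were higher in KO-c19 and lower in KO-c43 than in WT, although the KO-c19 and WT libraries of Bcl3 overlapped.

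**Figure D4:**
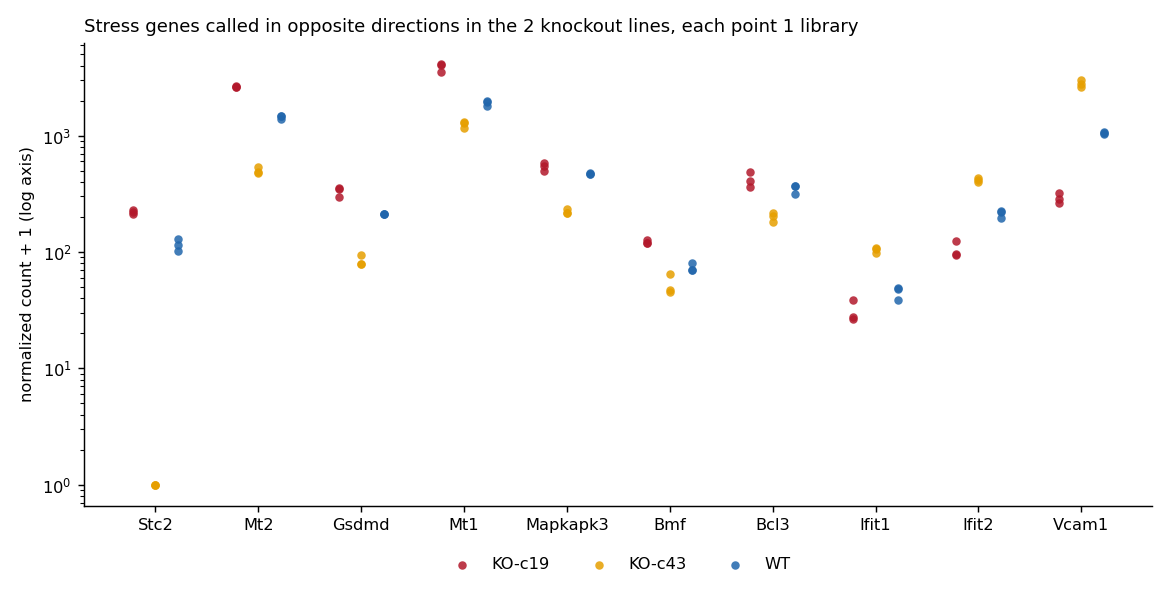
Normalized count + 1 (log axis) of the 10 stress genes called in opposite directions from WT in KO-c19 (red) and KO-c43 (yellow), with WT in blue and 1 point per library. The first 7 genes, from Stc2 to Bcl3, have their highest mean in KO-c19, with Bcl3 overlapping WT, and Ifit1, Ifit2 and Vcam1 are highest in KO-c43.

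Other genes differed strongly between the lines without opposite calls. Mapk13, a p38 isoform, had 811, 847 and 889.5 normalized counts in KO-c19 libraries, 216, 207 and 225 in KO-c43 libraries and 1039, 1124 and 996 in WT libraries. Ccl20, a chemokine, had 3.29, 11.1 and 5.57 normalized counts in KO-c19 libraries, 0, 0 and 0 in KO-c43 libraries and 16.2, 15.5 and 7.67 in WT libraries, so its counts were low in each group, its KO-c19 and WT libraries overlapped, and its change in KO-c19 against WT did not pass (−0.95, limma adjusted p = 0.114). Gadd45a had 120.2, 143 and 140.4 normalized counts in KO-c43, close to WT, and was lower in KO-c19 by the test of the difference (−1.44 ± 0.13 SE, limma adjusted p = 5.22e-08). Rtp4, a chaperone of receptors induced by interferon, had 45.2, 46.6 and 33.4 normalized counts in KO-c19 libraries, 123, 105 and 116 in KO-c43 libraries and 71.3, 112 and 96.4 in WT libraries (−1.45 ± 0.18 SE, limma adjusted p = 3.16e-06).

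Outside the stress lists, several genes close to silent in WT were abundant in KO-c19. Sele, the adhesion receptor E-selectin, had 554, 557 and 581 normalized counts in KO-c19, against 0.902, 0 and 1.10 in WT. Dio2, which activates thyroid hormone, had 662, 599.8 and 670.2 normalized counts in KO-c19, against 2.71, 3.33 and 2.19 in WT, and Tnxb, an extracellular matrix tenascin, had 526, 578 and 789 normalized counts in KO-c19, against 8.12, 5.55 and 5.48 in WT. In these 3 the WT values were a few reads, so no fold is given. Cdh17, an intestinal cadherin, had 3283, 3137 and 3249.8 normalized counts in KO-c19, against 66.8, 37.7 and 48.2 in WT. Xdh, xanthine dehydrogenase, which makes uric acid, had 841, 945 and 982 normalized counts in KO-c19, against 22.7, 19.02 and 27.4 in WT, and Aldh3a1, an aldehyde dehydrogenase, had 604, 632 and 793 normalized counts in KO-c19, against 25.3, 24.4 and 24.1 in WT. Bpifb4 (6.06 on the log2 scale), Add2 (4.89), which encodes a membrane skeleton protein, Sema6d (4.66), a guidance cue, and Map1a (4.58), a microtubule protein, rose too. Egr3, an immediate early factor, was 28.8-fold higher with 2625 ± 211 normalized counts in KO-c19, against 90.1 ± 8.89 in WT (SD, n = 3 each), and Mmp3, the protease stromelysin, had 21797, 21141 and 20914 normalized counts in KO-c19, against 984, 835 and 765 in WT.

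In the other direction, Tmem266 had 2.47, 0 and 1.11 normalized counts in KO-c19, against 1363, 1396 and 1400.4 in WT, and Ctsc, the lysosomal protease cathepsin C, had 4.11, 3.04 and 4.45 normalized counts in KO-c19, against 902, 945 and 1006 in WT. Ctsc thus fell whereas Ctsd rose. Fgfbp1, a carrier of fibroblast growth factors, had 3.29, 9.12 and 12.2 normalized counts in KO-c19, against 1427, 1640.4 and 1784 in WT, and Unc13b, a vesicle priming factor, had 4.11, 5.07 and 4.45 normalized counts in KO-c19, against 737, 725 and 733 in WT. Epithelial junction and membrane genes were among the largest decreases of the genes open to naming. These left out predicted genes and genes named in an account of the whole series. Cldn4, a tight junction claudin, had 97.0, 119 and 125 normalized counts in KO-c19, against 7934, 9899 and 9639 in WT, Marveld3, another tight junction protein, had 6.57, 2.03 and 7.79 normalized counts in KO-c19, against 513, 518 and 547 in WT, and Mal, an apical sorting protein, had 27.9, 26.3 and 33.4 normalized counts in KO-c19, against 2426, 2114 and 2061 in WT. Myh14 (−6.10), a nonmuscle myosin, Anxa8 (−6.30), Gca (−6.40), a calcium-binding protein, and Tubb2b (−6.33), a tubulin, fell likewise. Gvin1 had 1.88, 21.8 and 1.77 normalized counts in KO-c19, against 564, 482 and 675 in WT, with 1 KO-c19 library above the others, and belongs to a family of near-identical genes whose reads may be split.

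**Figure D5:**
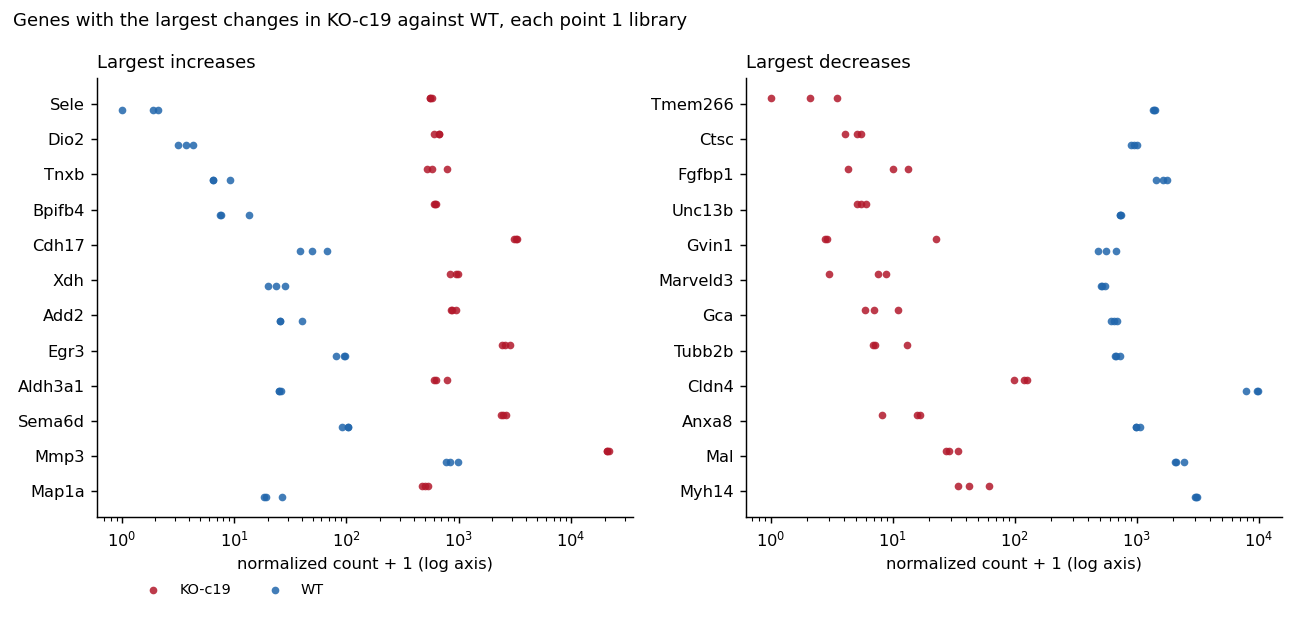
Normalized count + 1 (log axis) of the 12 genes with the largest increase and the 12 with the largest decrease in KO-c19 (red) against WT (blue), 1 point per library, among genes with a higher group mean of at least 500. No KO-c19 library overlaps a WT library in any of the 24 genes, which the choice of genes required.

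By absolute counts, among genes open to naming, the largest gains were in Spp1, Lmna, Hmga1b, Fn1, Igfbp4 and Fth1, the last given above. Spp1, osteopontin, had 88547, 77095 and 79445 normalized counts in KO-c19, against 5251, 6145 and 6091 in WT, a 14.02-fold rise (limma adjusted p = 6.15e-14). Igfbp4, which binds insulin-like growth factors, had 51983, 59844 and 59318 normalized counts in KO-c19, against 20585, 21419 and 20608 in WT, and Lmna, which encodes lamins A and C, had 82602, 88896 and 87739 normalized counts in KO-c19, against 45868, 44715 and 42988 in WT. Fn1, fibronectin, was 1.64-fold and Hmga1b 1.72-fold higher, the last with a near-identical partner in Hmga1. Among losses, Actb, cytoplasmic actin, came first with 283373, 313612 and 311082 normalized counts in KO-c19, against 426707, 435355 and 420503 in WT, and Ahnak, a giant scaffold protein, had 216061, 206376 and 202783 normalized counts in KO-c19, against 319569, 304899 and 348772 in WT. Scd2, given above, followed, then Thbs1, thrombospondin 1, with 6539.8, 6823 and 7116 normalized counts in KO-c19, against 66844, 67362 and 66527 in WT, and Hsp90ab1, also given above. Ncl, nucleolin, had 50244, 44044 and 44999 normalized counts in KO-c19, against 97156, 89081 and 95184 in WT, about 2.02-fold lower. The losses of Thbs1, Scd2 and Ncl exceeded 2-fold.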

How the data were processed

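The authors deposited a signal for each gene, which is its gene count divided by a scaling factor of the library. Per the submitters' processing notes, cutadapt, STAR and Partek were used with the genome build mm10; which versions, which counter, which strand setting and which annotation is not given in the sources used here. In the KO-c19 and WT libraries 83.2% to 83.8% of the values up to 20 reads came within 0.1 of a whole number of reads, so reads could not be recovered and no count model was used. Library totals ran from 45628576 to 50123222. The median residual SD of a gene was 0.09 (log2).

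Values were transformed as log2(value + 1). Genes with at least 10 in at least 3 of the 6 libraries were tested in 1 limma fit of 3 group means over all 9 libraries (limma 3.58.1, statmod 1.5.0, R 4.3.3 and data.table version 1.17.8), with an intensity trend, a robust prior, two-sided tests and Benjamini-Hochberg adjustment over all genes tested at a threshold of 0.05. Nat10 was also given an exact permutation test. No set test was run, and lists are described by counts and medians.

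The members, the 17 stress lists, the marker lists and the rule for naming genes were chosen with earlier results of these data known. The rule named Nat10. In each list it named regulators with a higher group mean of at least 2000 and a passing change of at least 1.5-fold, and the 4 other members with the smallest adjusted p. It added the 12 largest rises and falls with non-overlapping libraries and a higher mean of at least 500, the 6 largest gains and losses of counts, both among genes not yet named in an account of the whole series and not predicted, pseudogene, ribosomal, 7SK or mitochondrially encoded, and the 5 list members highest and lowest in KO-c19 against KO-c43. A gene that the rule named is not reported here. Alternatives were other pseudocounts, filters, scalings, fits and priors, a minimum fold, a block for the replicate number, and each library left out in turn. The limma script was tested on simulated data. Promoters came from RefSeq (GRCm38.p6), matched by symbol. matplotlib 3.10.9 under Python 3.11.15 drew the figures. Reads of near-identical or overlapping genes cannot be told apart with certainty.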

Additional observations from a re-analysis of the deposited data

Results flagged for a closer look

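A set of 10 stress genes was called in opposite directions from WT in the 2 knockout lines, with a difference between the lines that passed limma in the shared fit and was at least 2-fold. This difference is KO-c19 minus KO-c43 on the log2(normalized count + 1) scale. It was 7.78 for Stc2, which is listed at 0 in all KO-c43 libraries, so its size depends on the pseudocount. It was 2.40 for Mt2, 1.99 for Gsdmd, 1.64 for Mt1, 1.28 for Mapkapk3, 1.24 for Bmf and 1.05 for Bcl3. It was −1.77 for Ifit1, −2.01 for Ifit2 and −3.27 for Vcam1. Mapkapk3, a kinase below p38, had 496, 581 and 544 normalized counts in KO-c19 libraries, 217, 231 and 217 in KO-c43 libraries and 481, 466 and 467 in WT libraries. Bmf, a pro-apoptotic BH3 protein, had 119, 118 and 127 normalized counts in KO-c19 libraries, 46.5, 64.1 and 44.0 in KO-c43 libraries and 68.6, 68.8 and 80.0 in WT libraries, and Bcl3, a nuclear relative of the NF-kappaB inhibitors, had 363, 404 and 488 normalized counts in KO-c19 libraries, 217, 181 and 203 in KO-c43 libraries and 316, 366 and 370.4 in WT libraries. The KO-c19 and WT libraries of Bcl3 overlapped. Against WT, the rise of Bcl3 in KO-c19 was 0.25 ± 0.11 SE (limma adjusted p = 0.0489), and it did not pass without KO-c19 replicate 2 or 3 or WT replicate 1 or 2, after quantile normalization, without the low-value filter, in a fit of the KO-c19 and WT libraries alone or without the trend and robust prior (highest limma adjusted p = 0.290). The rise of Mapkapk3 was 0.19 ± 0.074 SE (limma adjusted p = 0.0276) and did not pass without KO-c19 replicate 2 or 3 or WT replicate 2 or 3 (highest limma adjusted p = 0.140). Libraries of KO-c19 and KO-c43 did not overlap in any of the 10 genes, which choosing them by their difference favoured. The share of all genes tested that met the same terms was not counted.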

How the results depend on the processing

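Over all genes tested, 5676 rose and 6113 fell in KO-c19 against WT. Requiring a fold of at least 2 left 1503 rising and 1104 falling. The other alternatives gave 4770 (filter of at least 50) to 6752 (scaling by totals) rising and 4995 (scaling by totals) to 6380 (no filter) falling, and leaving out 1 library 5292 to 5566 rising and 5760 to 6072 falling. Leaving out 1 library kept the change of Nat10 between −1.90 and −1.88 on the log2 scale. The median change of all genes was 0.09 with scaling by totals, beside 0.00. Of the stress genes, P4hb turned to higher in KO-c19 with scaling by totals (0.094, limma adjusted p = 0.0280) and quantile normalization (0.12, limma adjusted p = 0.00523), and Ubap2l with quantile normalization (0.12, limma adjusted p = 0.0138); both did not pass in the reported fit, and the cause was not tested. Without WT replicate 1 the proteasome list had 1 member rising and without WT replicate 3 it had 0, beside 2. Without WT replicate 2, and without the trend and robust prior, the NF-kappaB list had 3 rising, beside 6. The replicate numbers did not pair the samples (same-numbered correlations of deviations 0.0886, 0.0132 and 0.00238, and not every sample correlated best with its own number). With the replicate number as a block 5618 genes rose and 6045 fell, and 3133 were higher and 3615 lower in KO-c19 than in KO-c43; Ddit4 passed as higher with this block (limma adjusted p = 0.00441). Depth limits genes near 10 normalized counts, where 1 read is worth 0.822 to 1.11 of them.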
